A study of Mus musculus with 19 samples.

Results

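Interferon-stimulated genes are a set of 40 listed genes that cells switch on after interferon binds its receptors, and they are described here across 10 mouse liver tumours. The genes were taken from the list by symbol, and all 40 were found among the 39179 gene identifiers of the count table. All 10 tumours came from male mice carrying the alleles Ctnnb1tm1Mmt (HET) and Gt(ROSA)26Sortm1(MYC)Djmy (HOM), which received AAV8.TBG.PI.Cre.rBG at 640000000 genome copies per mouse. The first allele loses exon 3 of Ctnnb1 after Cre and gives a stabilised beta-catenin, and the second expresses the oncogene MYC after Cre. The TBG promoter limits Cre to hepatocytes, so only the hepatocyte-derived cells of each bulk sample carry the recombined alleles. The tumours, numbered 04 to 13, form 1 labelled group without a matched comparison group, and non-tumour liver was not analysed here, so the data describe how the genes differ between tumours of 1 genotype. The column names carry 1 of 5 tags. Tumour 04 has a tag of its own, and the other tags are shared by tumours 05 and 06, by 07 and 08, by 09 and 10, and by 11, 12 and 13. By the first part of the tag they fall into 3 families, tumours 04 to 06, 07 and 08, and 09 to 13. What a tag stands for is not stated. If it names a mouse, the tumours that share it come from 1 animal and are not independent replicates, and every p-value below measures the spread between tumours only.

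Interferons are secreted proteins that warn cells of infection. Type I interferons (interferon alpha and beta) signal through the receptor IFNAR and the kinases JAK1 and TYK2 to ISGF3, a complex that includes STAT2 and IRF9 and binds the interferon-stimulated response element (ISRE) in promoters. Interferon gamma, made mainly by T cells and NK cells, signals through IFNGR, JAK1 and JAK2, acts on promoters through the gamma-activated site (GAS) and induces IRF1, guanylate-binding proteins, immunity-related GTPases and the chemokines CXCL9 and CXCL10. The routes overlap, since IRF1 also acts at many promoters of the first kind. In liver, hepatocytes, macrophages and endothelial cells all respond to interferons.

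The libraries held between 11687034 (tumour 07) and 36964427 (tumour 13) counts assigned to genes, with a median of 16664597, and 3 counts corresponded to between 0.0812 and 0.257 counts per 1000000 counts (CPM). CPM here are counts divided by the library total after TMM scaling, a correction for differences in composition. The summed level of 6 matched hepatocyte markers was 21526 to 34424 CPM, and Glul, a beta-catenin target, reached 5411 to 14855 CPM. Libraries 05, 06 and 07 held 48.5 to 86.3 CPM of RNAs that lack a poly(A) tail, against 2.10 to 7.51 CPM in the other 7. Because the samples are bulk tissue, fewer cells of a type and less RNA per cell cannot be told apart.

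Promoter sequences show which members carry the letters of the elements named above. RefSeq promoters of the build GRCm38.p6, each of 300 bases (250 before the annotated start and 50 after it), were found for 30 of the 40 members and numbered 35, since some genes have more than 1 start. The ISRE letters searched were GAAANNGAAA and the GAS letters TTCNNNGAA, on both strands. The ISRE letters were present in 17 of the 35 promoters (48.6%) and in 3.44% of all 32851 promoters of that length. The GAS letters were present in 7 of the 35 promoters (20%) and in 8.30% of all promoters. Among the members usually ascribed to ISGF3, 6 of 13 promoters held the ISRE letters and 2 held the GAS letters. Among those usually ascribed to interferon gamma, 6 of 10 held the ISRE letters and 3 held the GAS letters. Such a match is a description of letters and not a bound site. The 5 sequences below are the 250 bases before the start of Igtp, Irf1 and Gbp2, 3 genes of the interferon gamma type that were highest in tumours 11 to 13, and of Isg15 and Ifit1, 2 genes of the ISGF3 type whose tumours overlapped. Capitals mark the ISRE or GAS letters on either strand, and the sequences run 5′ to 3′ along the gene's strand.
Igtp, chr11:58199306-58199555, plus strand: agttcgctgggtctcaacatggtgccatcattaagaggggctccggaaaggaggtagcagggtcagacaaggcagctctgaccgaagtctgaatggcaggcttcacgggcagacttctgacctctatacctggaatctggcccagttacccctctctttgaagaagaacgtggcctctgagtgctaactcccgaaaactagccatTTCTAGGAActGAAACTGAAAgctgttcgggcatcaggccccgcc
Irf1, chr11:53769764-53770013, plus strand: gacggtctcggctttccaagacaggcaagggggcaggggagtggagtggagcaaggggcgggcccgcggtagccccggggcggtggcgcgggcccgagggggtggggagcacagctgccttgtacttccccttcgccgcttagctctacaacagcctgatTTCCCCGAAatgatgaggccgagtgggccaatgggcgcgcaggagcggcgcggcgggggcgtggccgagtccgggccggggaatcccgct
Gbp2, chr3:142620413-142620662, plus strand: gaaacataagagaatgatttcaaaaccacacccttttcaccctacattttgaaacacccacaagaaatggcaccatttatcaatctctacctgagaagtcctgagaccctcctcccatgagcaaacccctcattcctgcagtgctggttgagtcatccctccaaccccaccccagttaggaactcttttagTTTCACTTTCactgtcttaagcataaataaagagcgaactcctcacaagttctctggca
Isg15, chr4:156200819-156201068, minus strand: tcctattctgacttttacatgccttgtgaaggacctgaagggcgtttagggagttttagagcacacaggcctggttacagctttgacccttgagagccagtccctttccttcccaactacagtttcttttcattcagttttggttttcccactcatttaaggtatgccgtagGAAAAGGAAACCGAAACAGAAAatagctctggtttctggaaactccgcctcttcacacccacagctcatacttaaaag
Ifit1, chr19:34640639-34640888, plus strand: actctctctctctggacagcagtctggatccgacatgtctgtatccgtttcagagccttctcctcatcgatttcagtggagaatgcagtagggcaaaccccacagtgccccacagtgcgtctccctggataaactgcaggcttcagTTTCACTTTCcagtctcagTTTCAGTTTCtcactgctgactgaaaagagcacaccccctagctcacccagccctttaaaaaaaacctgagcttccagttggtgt
The Igtp promoter held the GAS letters with their first base 45 bases before the start and the ISRE letters 34 bases before it, without overlap. Irf1, shown for the first of its starts, held only the GAS letters, 90 bases before it, and Gbp2 only the ISRE letters, 59 bases before its start. Isg15 held 3 ISRE matches that overlap each other, beginning 78, 72 and 66 bases before the start, and Ifit1 held 2, at 104 and 85 bases. The letters of neither element occurred in the windows of Cxcl9, Dtx3l or Irf9.

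The members differed between tumours more than most genes did. Every member was counted in every tumour, and the ratio of its highest to its lowest CPM ran from 1.92 (Samd9l) to 23.0 (Cxcl9), with a median of 6.33. A filter on low counts, applied to all genes, kept 12462 genes and 35 of the 40 members, leaving out Mx1, Oas1a, Oas2, Oas3 and Ifi44. The standard deviation (SD) of log2 CPM over the 10 tumours was above 1 in 10 of the 35 members kept, and in 5.18% of all kept genes. The median SD was 0.73 for these members and 0.33 for all kept genes. The spread is not even across the members: Samd9l, a growth-restricting antiviral factor, had an SD of 0.29 and Stat2 of 0.37, whereas Igtp had an SD of 1.53 and Cxcl9 of 1.63. Without tumour 08 only 6 members had an SD above 1, and on the variance-stabilised scale, which shrinks low counts, only 3 did. The share of all kept genes at these 2 settings is not given. The 2 counts therefore do not show whether the members' excess over other genes changed. Per kilobase of exon, median levels ran from 0.160 CPM (Oas3) to 245 CPM (Bst2, tetherin, which holds budding virus at the cell surface).

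**Figure D1:**
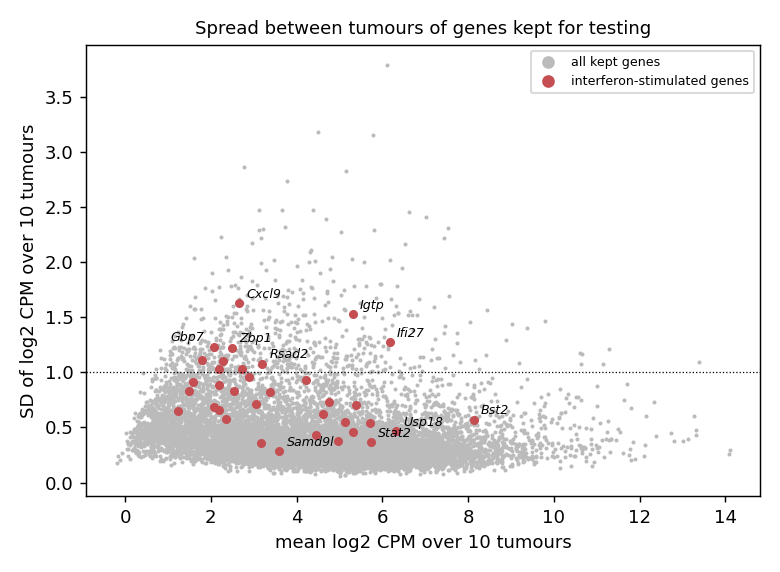
SD of log2 CPM over 10 tumours (vertical axis) against mean log2 CPM (horizontal axis) for 12462 kept genes (grey) and the 35 members among them (red), with a dotted line at an SD of 1. Of the members, 10 lie above the line, with Cxcl9 and Igtp the highest at 1.63 and 1.53.

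Which tumours were high depended on the gene. The highest value lay in tumours 11, 12 or 13 for 23 of the 40 members, in tumour 05 for 8, in tumour 09 for 6 and in tumour 06 for 2. The lowest value lay in tumour 08 for 23 members and in tumour 07 for 12, so that the tag of these 2 tumours held the minimum of 35 members. The same counts over all kept genes are not given here, so these counts describe the members only. Tumour 07 was also the shallowest library and held the most RNAs without a poly(A) tail (86.3 CPM), and the part of either was not tested. The heat map of the members shows a block high in tumours 11 to 13, members with their highest value in tumour 05, 06 or 09, and a low in tumours 07 and 08 that most members share.

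**Figure D2:**
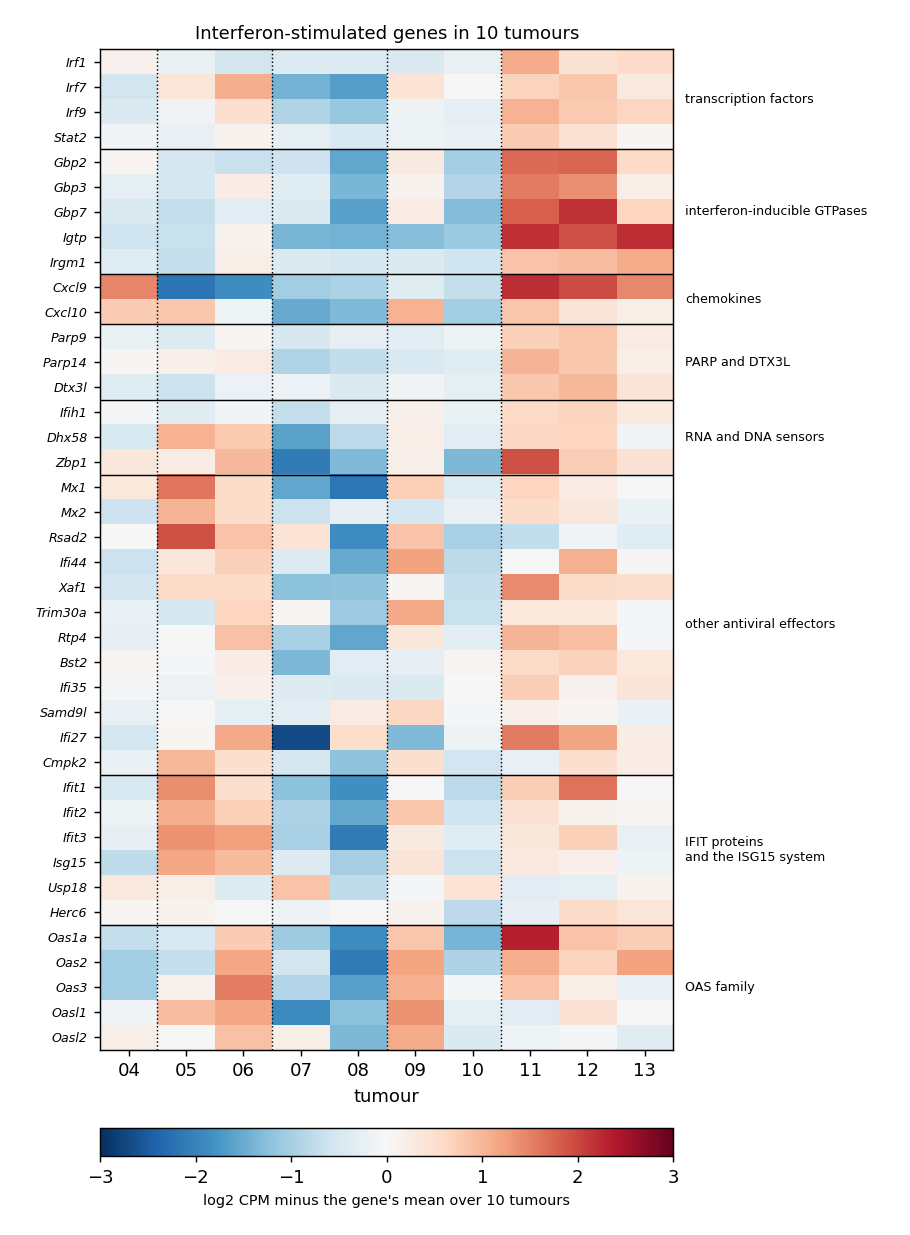
Log2 CPM of each of the 40 members (rows, grouped by role) in tumours 04 to 13 (columns), minus the gene's mean over the 10 tumours; red is above and blue below that mean, and dotted lines separate column-name tags. The GTPases and Cxcl9 are red in tumours 11, 12 and 13, whereas Ifit3, Isg15 and Rsad2 are reddest in tumour 05, and most rows are blue in tumours 07 and 08.

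The interferon-inducible GTPases, which attack the vacuoles that shelter intracellular microbes, separated tumours 11 to 13 most widely. Igtp (also Irgm3; chr11:58199556-58207592) measured 181, 151 and 184 CPM in tumours 11, 12 and 13, and had a lowest value of 14.6 (tumour 08) and a highest of 42.7 CPM (tumour 06) in the other 7. The 3 tumours were all at least 3 times any other, and the groups did not overlap. Irgm1, a regulator of autophagy and of the other immunity-related GTPases, measured 74.9, 78.7 and 90.5 CPM in tumours 11 to 13 and 25.3 to 46.7 CPM in the others. The guanylate-binding proteins were less abundant and less even among the 3. Gbp2 stood at 15.6, 16.3 and 7.23 CPM against 1.55 to 5.77 CPM, and Gbp7 at 14.6, 18.8 and 6.49 CPM against 1.26 to 4.82 CPM. Gbp3 measured 8.64, 7.66 and 3.25 CPM, and its value in tumour 13 lay within the range of 1.06 to 3.40 CPM of the others. In all 3 Gbp genes tumour 13 was well below tumours 11 and 12, whereas in Igtp and Irgm1 it was the highest of all. The annotation overlaps 162 exonic bases of Igtp with Irgm2 on the same strand, and Gbp2, Gbp3 and Gbp7 have close paralogues. Part of their reads could therefore be left out of the counts, as ambiguous or as aligned more than once.

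The 2 chemokines draw CXCR3-bearing T cells and NK cells into tissue, and their highest values lay in different tumours, with an r of 0.41 between them over the 10 tumours. Cxcl9 measured 29.3, 24.4 and 17.1 CPM in tumours 11, 12 and 13. It was also high in tumour 04, at 17.4 CPM, and lay between 1.28 (tumour 05) and 4.82 CPM (tumour 09) in the remaining 6. Cxcl10 peaked in tumour 09 at 15.1 CPM and measured 13.1, 9.63 and 8.31 CPM in tumours 11 to 13. Its low values were 2.49 CPM in tumour 07, 2.85 in tumour 08 and 3.49 in tumour 10, and the groups overlapped. Tumour 05, the lowest for Cxcl9, had 12.8 CPM of Cxcl10.

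**Figure D3:**
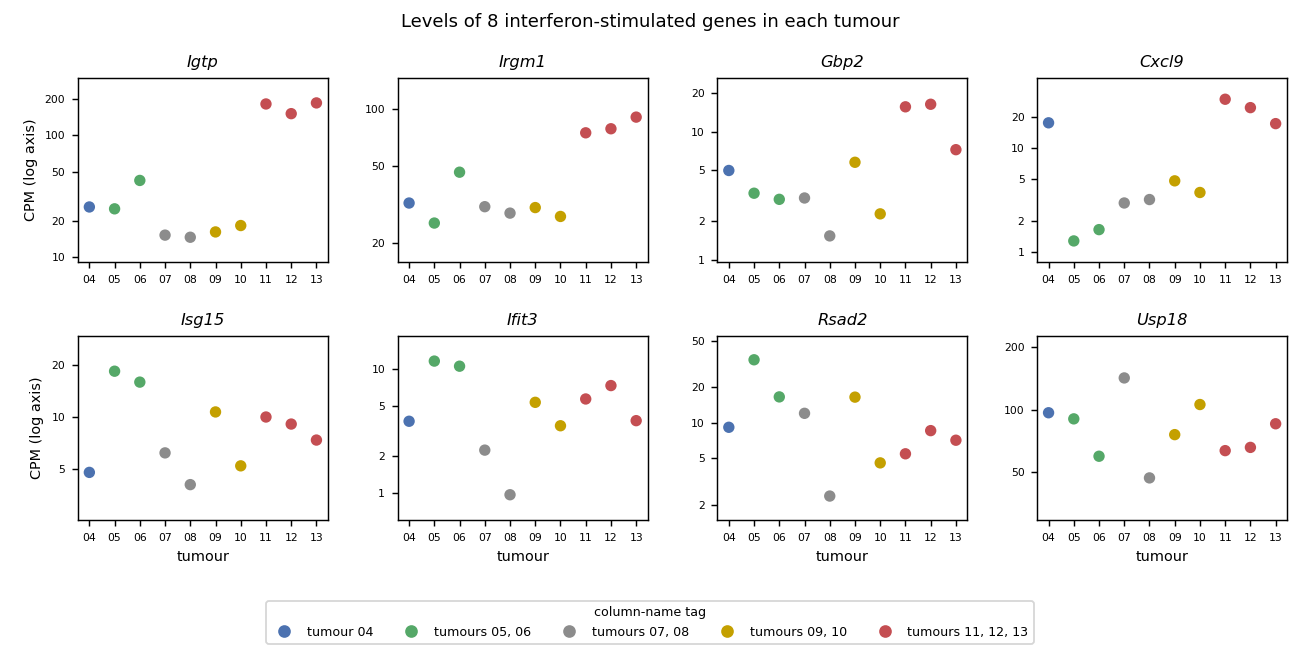
CPM (log axis) of 8 members in tumours 04 to 13, each point 1 tumour, coloured by column-name tag. Igtp, Irgm1 and Gbp2 are highest in the 3 tumours 11 to 13, and Cxcl9 there and in tumour 04; Isg15, Ifit3 and Rsad2 are highest in tumour 05, and Usp18 in tumour 07.

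The transcription factors among the members were split. Irf1, the factor that carries much of the interferon gamma response, measured 75.0, 47.7 and 51.7 CPM in tumours 11 to 13 and 23.8 to 38.2 CPM in the others, tumour 04 being the highest of these. Irf9, the DNA-binding subunit of ISGF3, measured 55.9, 46.4 and 42.0 CPM against 12.2 to 38.1 CPM. Stat2, its partner, measured 89.2, 72.9 and 55.4 CPM against 38.2 to 56.7 CPM, so that tumour 13 lay within the range of the others. Irf7, the factor that amplifies the production of type I interferon, was highest in tumour 06 at 39.7 CPM and lowest in tumour 08 at 5.80 CPM, with 29.7, 32.7 and 22.8 CPM in tumours 11 to 13. Exons of Irf9 overlap 282 bases of Rnf31 on the same strand.

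PARP14, PARP9 and its partner ubiquitin ligase DTX3L, which modify proteins with ADP-ribose or ubiquitin in the interferon response, were moderately abundant. Dtx3l measured 92.3, 103 and 68.0 CPM in tumours 11, 12 and 13 and 33.2 to 49.0 CPM in the other 7, without overlap. Parp9 measured 65.4, 69.1 and 47.0 CPM against 28.3 to 42.1 CPM, also without overlap, and Parp14 49.4, 43.0 and 27.6 CPM against 13.1 to 29.1 CPM. Dtx3l and Parp9 lie head to head and share 458 exonic bases on opposite strands. The kit keeps strand, but the strand setting of the counting is not given in the sources used here.

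Among the sensors, Ifih1 (MDA5, a detector of long double-stranded RNA) measured 32.4, 34.4 and 26.5 CPM in tumours 11 to 13 and 13.2 to 24.3 CPM elsewhere. Zbp1, which senses left-handed nucleic acid and can trigger necroptosis, ranged from 1.20 CPM in tumour 07 over a median of 6.73 to 20.9 CPM in tumour 11. Dhx58 (LGP2, a helper of MDA5) instead peaked in tumours 05 and 06, at 21.4 and 18.0 CPM, and was lowest in tumour 07 at 3.32 CPM.

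The IFIT proteins, which bind foreign RNA, and the ubiquitin-like ISG15 were highest in tumour 05 except for Ifit1. Ifit3 measured 11.6 and 10.6 CPM in tumours 05 and 06, 3.83 to 7.36 CPM in tumours 11 to 13, and 0.966 CPM in tumour 08. Isg15 measured 18.3 and 15.8 CPM in tumours 05 and 06 against 4.06 CPM in tumour 08, with a median of 8.20 CPM. Ifit2 ranged from 0.869 (tumour 08) to 5.93 CPM (tumour 05), with 4.82 CPM in tumour 09. Ifit1 differed from its relatives in that its highest value, 10.6 CPM, was in tumour 12, with 9.12 CPM in tumour 05. Herc6, the ligase that attaches ISG15 in mice, varied little, from 5.11 to 12.9 CPM. Usp18, the protease that removes ISG15 and dampens receptor signalling, stood out: it was abundant (46.6 CPM in tumour 08, a median of 80.4, and 142 CPM in tumour 07), and its r with the mean of the other 39 members was -0.28, the only negative one. Tumour 07, in which 12 members had their minimum, had the maximum of Usp18.

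The OAS proteins make the messenger that activates RNase L, and Oasl1 and Oasl2 are related proteins, both highest in tumour 09 here. Oasl1 was high in tumours 09, 06 and 05, at 16.7, 14.7 and 12.5 CPM, and lowest in tumour 07 at 1.66 CPM. Oasl2 ranged from 1.55 (tumour 08) to 9.01 CPM (tumour 09). Oas1a, Oas2 and Oas3 did not pass the filter, with medians of 2.47, 2.06 and 1.13 CPM. Oas1a reached 10.6 CPM in tumour 11 and no more than 3.78 CPM in any other tumour, but it belongs to a cluster of near-identical genes, so its reads are uncertain.

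The remaining antiviral effectors differed in which tumour was highest. Rsad2 (viperin, an enzyme that makes a chain-terminating nucleotide) peaked in tumour 05 at 34.3 CPM, with a median of 8.84 and a minimum of 2.37 CPM in tumour 08. In tumours 11 to 13 it measured 5.42, 8.55 and 7.08 CPM, all below the median of the 10. Cmpk2, a mitochondrial nucleotide kinase and its neighbour on the chromosome, ranged from 1.88 (tumour 08) to 9.12 CPM (tumour 05), and Mx2, a dynamin-like GTPase, from 3.14 (tumour 07) to 10.3 CPM (tumour 05). Mx1 and Ifi44 were low, with highest values of 3.25 and 2.79 CPM. Bst2 was the most abundant member per length and the only one of these effectors whose groups did not overlap, at 415, 452 and 347 CPM in tumours 11 to 13 and 110 to 326 CPM elsewhere. It was the only one of the 40 members in which 1 tumour (07) stood apart by a gap large against the range, as 6.03% of all kept genes did. Ifi27, a mitochondrial protein, ranged from 11.2 CPM in tumour 07 to 211 CPM in tumour 11, with 157 CPM in tumour 06. Xaf1, a promoter of apoptosis, and Rtp4, a receptor-trafficking protein, were highest in tumour 11, at 12.1 and 11.7 CPM, from minima of 1.85 and 1.88 CPM. Ifi35 ranged from 23.1 to 51.5 CPM, but shares 620 exonic bases on opposite strands with Vat1, which has more counts (16063 against 6646 over the 10 tumours), so with the strand setting unknown its level is uncertain. Smaller overlaps on opposite strands are those of Ifi27 with Ifi27l2a (163 bases), Cxcl10 with Art3 (133) and Irf7 with Phrf1 (63). Samd9l ranged from 9.60 to 18.5 CPM and Trim30a, a restrainer of inflammatory signalling, from 1.01 to 5.14 CPM.

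No member passed the test between the 3 tag families. In edgeR's quasi-likelihood test over all kept genes, with Benjamini-Hochberg adjustment, 0 of 35 members and 0.00802% of all genes had an adjusted p under 0.05, and the lowest adjusted p of a member was 0.171. Unadjusted, 19 members and 14.0% of all genes had a p under 0.05. With DESeq2 in place of edgeR 5 members were called (Cxcl10, Ifit3, Irf7, Irf9 and Oasl1), and 4.14% of all genes with an adjusted p. In the contrast of tumours 04 to 06 with tumours 09 to 13, 0 members and 0.00802% of all genes were called, 5 of the 35 members and 17.3% of all genes had an unadjusted p under 0.05, and DESeq2 called 0 members and 4.99% of all genes. The last family joins tumours 09 and 10, with 16.2 and 18.2 CPM of Igtp, to tumours 11 to 13, with 151 CPM or more.

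Tested over the 5 whole tags, a division used only after the values had been seen, Igtp and Cxcl9 differed between tags. Their adjusted p in edgeR's quasi-likelihood test were 0.00545 and 0.0145, and 0.425% of all genes were called. Leaving out tumour 11 ended both calls, whereas DESeq2 called 22 members and 10.1% of all genes, and edgeR without the low-count filter 17 members and 3.94% of all genes. Log2 differences between the tag of tumours 11 to 13 and the mean of the other 4 tags were then estimated. Because that tag was picked for its high values, the p-values of this contrast are too small and serve as a description. It gave 2.98 (SE 0.18) for Igtp, 2.46 (SE 0.21) for Cxcl9, 1.36 (SE 0.19) for Irgm1, 1.19 (SE 0.17) for Irf9 and 1.06 (SE 0.17) for Dtx3l, and these 5 of 35 members had an adjusted p under 0.05 (edgeR, 0.000533 to 0.0479), as did 0.265% of all genes in the same direction. Tumour 04, a tag of its own and high in Cxcl9, weighs as much in that mean as each of the other tags, and without it the log2 difference of Cxcl9 was 3.13. The other 3 GTPases and Irf1 had adjusted p between 0.058 and 0.110 in that contrast. The median log2 difference was 0.71 for the 35 members and 0.01 for all genes. Tumours 11, 12 and 13 were all above the other 7 in 10 of the 35 members (Irf1, Irf9, Ifih1, Parp9, Dtx3l, Gbp2, Gbp7, Igtp, Irgm1 and Bst2), and in 3.19% of all kept genes. They were all below in none of the members and in 434 of the 12462 kept genes, a share too small for the members' count to say anything. Without tumour 13, with 2 tumours in place of 3 to lie above the rest, the count became 16 members and 5.74% of all kept genes.

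**Figure D4:**
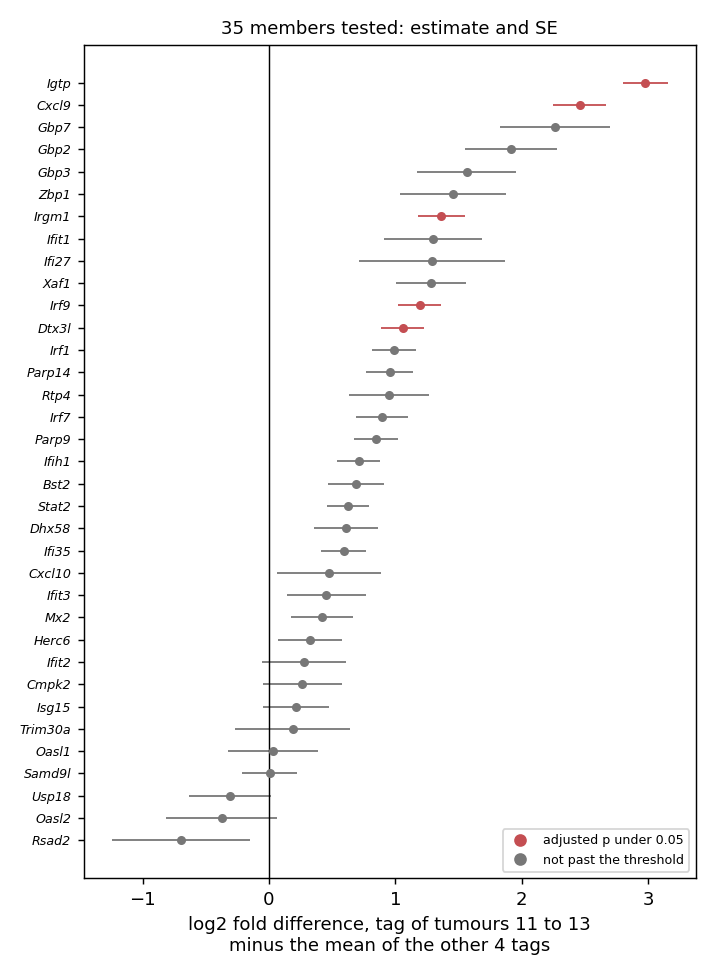
Log2 difference between the tag of tumours 11 to 13 and the mean of the other 4 tags (horizontal axis; point, estimate; bar, 1 SE) for the 35 members tested, in order of size. The 5 members in red had an adjusted p under 0.05 in a contrast chosen after the values were seen; Igtp is the largest at 2.98, and Rsad2 lies lowest at -0.70.

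Within the last tag family, tumours 11 to 13 had a mean of 172 CPM of Igtp (SD 18.6, n = 3) and tumours 09 and 10 a mean of 17.2 CPM, a log2 difference of 3.31 (SE 0.22). These are the same 3 tumours and the member with the largest difference, both picked by their values, so the comparison is a description and no further support. Igtp alone of the members, and 0.0225% of all genes, had an adjusted p under 0.05 there (edgeR), with the same limit on the p-values, and 19 of the 35 kept members were above both of tumours 09 and 10 in all 3, as were 12.8% of all kept genes. Over the 17 alternative fits of the contrast the log2 difference of Igtp lay between 2.90 and 3.31 and passed the threshold in all 17. Cxcl9 passed in 14 of the 17, with log2 differences of 1.93 to 3.13, and Irgm1 in 9, with 1.27 to 1.49. Irf9 passed in 7, with 1.03 to 1.43, and Dtx3l in 6, with 0.93 to 1.21, so that Irgm1, Irf9 and Dtx3l lost calls while their sizes stayed near the values above.

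The members varied together only in part. Over the 10 tumours the mean Pearson r of the 780 pairs of members was 0.49, against 0.00 for all pairs of kept genes, and 90.4% of the pairs had an r above 0. Within the 8 members usually ascribed to interferon gamma (Irf1, Gbp2, Gbp3, Gbp7, Igtp, Irgm1, Cxcl9 and Cxcl10) the mean was 0.74. Within the 17 usually ascribed to ISGF3 (Ifit1, Ifit2, Ifit3, Isg15, Irf7, Mx1, Mx2, Oas1a, Oas2, Oas3, Oasl1, Oasl2, Rsad2, Usp18, Rtp4, Ifi44 and Cmpk2) it was 0.61, and between the lists it was 0.35. On the second list, Mx1, Oas1a, Oas2, Oas3 and Ifi44 did not pass the low-count filter. They are included in the values for members, whereas the comparison used kept genes only. These values share libraries and some column tags and are given without a test. Rtp4, Xaf1 and Irf9 followed the mean of the other members most closely, with r of 0.96, 0.95 and 0.94, and Samd9l hardly at all, with r of 0.09. The first principal component held 59.5% of the members' variance and separated tumours 11 and 12 from 07 and 08. The second held 20.5%, with Cxcl9 and Igtp at one end (loadings 0.49 and 0.29) and Rsad2 and Oasl1 at the other (-0.34 and -0.24).

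Averaged over each list, the tumours were ordered differently. Some members are on neither list, so the difference depends on how members were assigned. Stat2 and Irf9, parts of ISGF3, are on neither. Their r was 0.91 and 0.85 with the interferon gamma led mean, and 0.57 and 0.77 with the ISGF3-type mean. Ifih1, Parp9, Parp14, Dtx3l, Zbp1, Herc6, Bst2, Ifi35 and Ifi27 also had the larger r with the former. Dhx58, Xaf1, Trim30a and Samd9l had it with the latter. The interferon gamma led genes had a mean log2 CPM of 4.94, 4.78 and 4.28 in tumours 11, 12 and 13 and between 2.26 (tumour 08) and 3.50 (tumour 04) in the other 7. The ISGF3-type genes had their highest means in tumours 06, 05 and 09, at 2.97, 2.84 and 2.78, and 2.59, 2.65 and 2.24 in tumours 11 to 13, so that those 3 lay inside the range of the others. The lowest, 0.66, was in tumour 08. The ISGF3-type genes therefore spanned 4.97-fold and the interferon gamma led genes 6.41-fold between tumours. Pearson's r between both means was 0.51 and Spearman's rho 0.43 over the 10 tumours, and 0.61 and 0.64 within the 7 tumours outside the tag of 11 to 13. Without tumours 07 and 08, the 2 farthest from the median of the ISGF3-type genes, r was 0.15 and rho -0.10, so the relation over all 10 rests on those tumours, although leaving out the ends of an axis narrows its range and can lower r by itself.

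**Figure D5:**
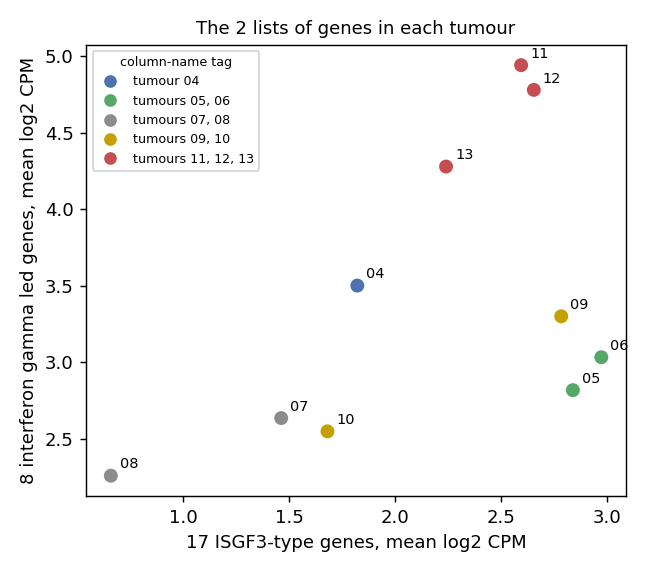
Mean log2 CPM of 8 interferon gamma led genes (vertical axis) against that of 17 ISGF3-type genes (horizontal axis), each point 1 tumour, labelled by number and coloured by column-name tag. Tumours 11 to 13 lie above the rest on the vertical axis, at 4.28 to 4.94, but not beyond tumours 05, 06 and 09 on the horizontal axis, and tumour 08 is lowest on both.

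Few counts were assigned to the interferon genes themselves. Of 17 interferon genes found in the table, 13 had no count in any tumour, which allows up to 0.0812 to 0.257 CPM depending on the library, for counting error only. Ifnb1 had at most 3 counts in a tumour and none in 7 tumours. Ifng had at most 2 counts, in tumour 12, and none in 8 tumours, Ifnl3 had 2 counts in tumour 11 alone, and Ifnk had single counts in 2 tumours. Reads aligned more than once were not counted (45.4 to 57.9% of all lines' counts), and the interferon alpha genes are close paralogues, so their zeros and the limit above hold for reads aligned once and do not show that the transcripts were absent.

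The receptors and kinases of the pathway were measured in every tumour. Ifnar1 and Ifnar2, the chains of the type I receptor, had medians of 56.7 and 55.7 CPM, and Jak1, Jak2 and Tyk2 of 94.9, 14.3 and 41.2 CPM. In the contrast of tumours 11 to 13 the 5 receptor genes tested had a median log2 difference of -0.28. None passed, and since only 0.393% of all genes passed in either direction, that count says nothing about the receptors. Ifngr1, the ligand-binding chain for interferon gamma, was lower in tumours 11 to 13 (49.7 to 78.8 CPM) than in all others (81.0 to 206 CPM), with an adjusted p of 0.119 (edgeR). Il10rb measured 6.08 to 11.2 CPM against 14.7 to 25.4 CPM (adjusted p = 0.0882, edgeR), and Ifngr2 and Ifnlr1 had medians of 35.6 and 1.67 CPM. Of all 12462 kept genes, 434 were lower in each of tumours 11 to 13 than in any other tumour. Stat3 was highest in tumour 05 at 374 CPM, with a median of 129 CPM.

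Further interferon-stimulated genes outside the list were counted in the same way. Of 48 tested, 5 were higher in the contrast of tumours 11 to 13, as were 0.265% of all genes, and 0 lower. In 13 of the 48, and in 3.19% of all kept genes, these 3 tumours were above all others. The median log2 difference was 0.36, against 0.71 for the members, and the lists were not compared by a test. The 5 were Irgm2, Psmb8, Psmb9, Tap1 and Ifi47, named because of that count. Irgm2, the neighbour of Igtp, measured 139, 117 and 134 CPM, and no more than 43.2 CPM in any other tumour. Psmb8 and Psmb9 are subunits of the immunoproteasome and Tap1 the peptide transporter for class I antigen presentation. Psmb9 measured 36.8, 27.1 and 15.2 CPM against 4.06 to 8.25 CPM, and Tap1 71.3, 52.5 and 38.0 CPM against 10.4 to 34.0 CPM. Of all the genes on that list Tgtp1, Apol9a and Apol9b had the largest spread (SD 2.39, 2.20 and 1.63) and Azi2, Nmi and Ifitm2 the smallest (0.12, 0.16 and 0.19). Tgtp1, an immunity-related GTPase with a near-identical copy, measured 12.3 to 16.8 CPM in tumours 11 to 13 and 0.0923 to 0.983 CPM in the others.

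Upstream sensors and negative regulators had median log2 differences of 0.01 and -0.11 in that contrast over 9 genes tested of each. None passed, which at 0.393% of all genes says nothing about either list. Samhd1, a negative regulator that degrades nucleotides and was named after its values were seen, measured 27.0 to 28.8 CPM in tumours 11 to 13 and 13.8 to 21.5 CPM in the others, without overlap. Ptpn2 and Irf2bp2 were lower in these 3 tumours than in any other. Of all 12462 kept genes, 3.19% were above the other 7 in all 3 tumours, and 434 genes were below. Among the sensors and adaptors, Sting1, Tlr9 and Cgas had the largest SD (0.89, 0.76 and 0.72) and Mavs, Irf3 and Myd88 the smallest (0.18, 0.21 and 0.24). Among the regulators, Socs1, Socs3 and Irf2bp2 had the largest SD (1.24, 1.15 and 0.81). Socs3, a feedback inhibitor induced through STAT3, was highest in tumour 05 at 139.6 CPM, the tumour with the most Stat3, and lowest in tumour 12 at 13.7 CPM. Ptpn6 and Pias1 had SDs of 0.12 and 0.17, and Trex1 was listed at 0 in every tumour.

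Outside the list, the 15 kept genes whose log2 CPM followed the members' mean most closely over the 10 tumours had Pearson's r between 0.88 and 0.93. Mcl1 (an anti-apoptotic protein) had an r of 0.93, and Ikbke, the kinase that activates IRF3 and IRF7, 0.92. Mettl6, Gm5970, Zfp800, Supt16, Magt1, Tor1aip2, Crkl, H2-Q5, Rbbp5, Alpk1, Tap1, Krr1 and Eif2ak2 made up the rest. Of the 15, 3 (Ikbke, Tap1 and Eif2ak2) are on the interferon pathway lists, which hold 76 of the 12462 kept genes. The 15 were picked as the highest r of all these genes over only 10 tumours, so the size of r is a description.

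The summed markers of T cells and NK cells varied with the interferon gamma led genes, and those of 3 other cell types were lowest in tumours 11 to 13. The 13 markers of T cells and NK cells summed to 3.63 to 10.8 CPM in tumours 11 to 13, with the maximum in tumour 11, and to 1.00 to 5.33 CPM in the other 7. None passed the filter, the highest single value was 1.95 CPM (Nkg7 in tumour 11), and 8 of the 13 had no count in at least 1 tumour, Cd8a and Cd3g among them. Tumours 12 and 13, at 4.14 and 3.63 CPM, lay within the range of the others. Over the 10 tumours the log2 of this sum had an r of 0.70 and a rho of 0.62 with the mean of the interferon gamma led genes, the largest r of the 10 marker lists. Without tumours 10 and 11, the 2 farthest from its median, r was 0.45 and rho 0.31, and within the 7 tumours outside the tag of 11 to 13 they were 0.59 and 0.57. Within those 7 the relation was not particular to this list, since Kupffer cell and macrophage markers had an r of 0.60 and a rho of 0.54. The endothelial, stellate cell and fibroblast, and erythrocyte sums had r of -0.60, -0.56 and -0.47 over all 10 tumours. Within the 7 they had 0.37, 0.37 and 0.28. The points share libraries and column tags, the sums rest on few counts, and no test was made. The 7 endothelial markers summed to 39.9 to 43.7 CPM in tumours 11 to 13 and 45.7 to 333 CPM elsewhere. The 7 markers of stellate cells and fibroblasts summed to 244 to 309 CPM against 363 to 1796 CPM, and the 5 erythrocyte genes to 101 to 126 CPM against 219 to 6181 CPM. All 3 sums were lower in tumours 11 to 13 than in any other tumour, none of their genes was called in the contrast, and none was at 0 in any tumour.

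The other marker lists overlapped between the groups. Kupffer cell and macrophage markers (12) summed to 232 to 350 CPM in tumours 11 to 13 and 170 to 520 CPM elsewhere, with Marco at 0 in tumour 05. The 5 plasmacytoid dendritic cell markers summed to 0.559 to 1.95 CPM against 0.554 to 3.25 CPM, and Siglech and Klk1 were at 0 in some tumours. The 5 B cell markers summed to 2.50 to 5.86 against 1.66 to 14.6 CPM, with Ms4a1 at 0 in at least 1 tumour, and the 5 neutrophil markers to 1.23 to 4.10 against 1.48 to 28.6 CPM, with Ly6g and Cxcr2 at 0 in at least 1 tumour. Hepatocyte markers summed to 25719 to 34253 CPM against 21526 to 34424 CPM, and beta-catenin targets to 8953 to 12975 against 5620 to 15158 CPM. Libraries 12 and 13 were also the deepest, and tumours 11 to 13 held 2.10 to 6.05 CPM of RNAs without a poly(A) tail. The part of these cell types, of depth and of library composition in the members' levels was not tested. Counts thinned to the shallowest library gave 12 members, and 2.84% of all kept genes, above all others in tumours 11 to 13. With a covariate for RNAs without a poly(A) tail the log2 differences of Igtp, Cxcl9, Irgm1, Irf9 and Dtx3l in the contrast were 3.00, 2.45, 1.38, 1.27 and 1.11, and Igtp and Cxcl9 kept an adjusted p under 0.05 (edgeR). Without tumours 05, 06 and 07 they were 3.20, 1.93, 1.45, 1.43 and 1.07, and Igtp kept an adjusted p under 0.05 (edgeR).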

How the data were processed

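RNA was extracted with Trizol from whole snap-frozen tumours, and libraries were made with the Illumina TruSeq stranded mRNA kit and sequenced as paired-end reads. The authors deposited raw gene counts, whole numbers per gene and library without normalization. The submitters' processing notes name TopHat2, HTSeq and GRCm38, with versions and strand setting not given in the sources used here. HTSeq lines that name no gene (5 per library) were left out, among them reads aligned more than once, 45.4 to 57.9% of all lines' counts. Columns were matched to tumours 04 to 13 by number, and 9 columns without such a match were not used. Gene names came from GENCODE M39 (34199 of 39179 identifiers, 87.3%). The members and lists were chosen with earlier results of these data known. All members are named, from pathway lists those with 8 genes or fewer and otherwise the 3 highest and 3 lowest by SD, and 15 genes most like the members' mean.

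Counts were filtered with filterByExpr (12462 genes kept), scaled by TMM (factors 0.927 to 1.11) and expressed as CPM or log2 CPM (prior count 2). Differences were tested with glmQLFit and glmQLFTest of edgeR 4.0.16 in R 4.3.3 over all kept genes, with Benjamini-Hochberg adjustment and a threshold of 0.05; the common biological coefficient of variation was 0.340. DESeq2 1.42.0 served as an alternative. Scripts were tested on simulated data. Of 285 listed genes 274 matched, and 1 gene of the pathway lists is not reported here. Promoters came from RefSeq (GRCm38.p6), gene coordinates from the same build, and exon lengths from GENCODE M39. Alternatives were other size factors, prior counts and filters, thinned counts, sums by tag, a covariate for RNAs without a poly(A) tail, and each tumour left out. The 5-tag test, its contrast and the count of members above the other tumours were added after seeing the data.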

Additional observations from a re-analysis of the deposited data

Results flagged for a closer look

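Of 43 measures examined (the 40 members, the mean of the members and the means of both lists), 1 held a tumour that stood apart from the other 9 by a gap large against the whole range. For Bst2 the gap between tumour 07 (110 CPM) and the next lowest, tumour 08 (222 CPM), took 0.498 of the range on the log2 scale, above Dixon's limit for 10 samples. Chance marks about 5% of such measures, and 6.03% of all kept genes exceeded the limit in these tumours. Tumour 07 is the shallowest library and has the most RNAs without a poly(A) tail (86.3 CPM), and the part of either was not tested.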

How the results depend on the processing

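No paired analysis was possible because the 10 tumours form 1 labelled group and the columns of groups that share replicate numbers were not used. The count of members with an SD above 1 was 10 (5.18% of all kept genes). It was 3 after a variance stabilising transformation and 6 to 11 with each tumour left out (6 without tumour 08). The share of all kept genes is given for the main setting only. The median SD of members was 0.73 and became 0.83 without a low-count filter. Members above all others in tumours 11 to 13 numbered 10, and 10 to 16 with each tumour left out (16 without tumour 13, when the share of all kept genes was 5.74% in place of 3.19%). Between tag families 0 members were called (0.00802% of all genes), 5 with DESeq2 (4.14%) and 0 to 1 with each tumour left out (Irf7 without tumour 04, when 0.685% of all genes were called). Between the 5 tags 2 were called (0.425% of all genes), 22 with DESeq2 (10.1%), 17 without the filter (3.94%), 1 with the covariate for RNAs without a poly(A) tail (0.0722%), and 0 to 5 with each tumour left out (0 without tumour 11, with 0% of all genes, 1 without 05, with 0.0158%, and 5 without 04, with 1.08%). In the contrast of tumours 11 to 13 the 5 members (and 0.265% of all genes, higher) became 17 with DESeq2 (2.6% of all genes), 15 without the filter (1.11%), 3 with 2 groups and no tags in the model (0.0642%), 2 with the covariate (0.0802%), 1 within the last tag family (0.015%), 1 without tumours 05, 06 and 07 (0.0229%), and 2 to 9 with each tumour left out (2 without 07, 08, 11, 12 or 13, 3 without 05, 9 without 10, when 1.04% of all genes were higher; the lowest share was 0.0557%, without 11). Over these fits the log2 differences of the 5 stayed positive, at 2.90 to 3.31 for Igtp, 1.93 to 3.13 for Cxcl9 (3.13 without 04), 1.27 to 1.49 for Irgm1, 1.03 to 1.43 for Irf9 and 0.93 to 1.21 for Dtx3l. The cause of these changes was not tested, and neither was the part of the smaller number of samples or the changed number of genes. Under other scalings and with each tumour left out, the mean r of members was 0.41 to 0.55 and the r between both lists 0.33 to 0.63. Both were lowest without tumour 08 and highest without tumour 05. Without both tumours 07 and 08 the r between the lists was 0.15, and rho turned from 0.43 to -0.10. At this depth ligand transcripts at 0 could not be told from levels under 3 counts of reads aligned once.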
